A study of Mus musculus with 18 samples.

Results

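p53ER cells given 4-hydroxytamoxifen (4-OHT) were set against uninfected cells given the same drug, on 6 of the 18 expression arrays of the series. The members were the arrays titled for either kind of cell with 4-OHT at 4 h, 3 of p53ER cells and 3 of uninfected cells, numbered 1 to 3 in each group. Both groups are a mouse cell line named TKO, described in its labels as telomere dysfunctional, and both received 100 nM 4-OHT for 4 h. The p53ER cells express p53, a tumour suppressor, fused to an estrogen receptor, a protein that the study states works only once 4-OHT is present, and the uninfected cells have no fusion. The other 12 arrays hold p53ER and uninfected cells with vehicle at 4 h and p53ER and uninfected cells at 0 h, 3 arrays in each of these 4 groups. The study chose 4 h to list genes that p53 may act on directly, and with the drug on both sides this comparison asks which genes differ between the cells when 4-OHT itself does not. The labels name no cells infected with an empty vector, so the fusion and the infection cannot be told apart here. They also do not say whether the p53ER cells are a single clone, or whether replicates were separate cultures, so the spread behind the p-values may be technical.

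p53 is a transcription factor that binds paired decamers in DNA and switches on genes that halt the cell cycle, kill the cell, repair DNA or adjust metabolism. Mdm2, one of its targets, encodes the ubiquitin ligase that marks p53 for destruction, so the response limits itself. Cdkn1a encodes p21, the inhibitor of cyclin-dependent kinases through which p53 stops the cycle and, indirectly, lowers the transcripts of many cell cycle genes.

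Levels are given as log2 signals, from arrays brought to the same 2% trimmed mean (82.7), with 4.13 added, and a difference is p53ER minus uninfected on that scale, which understates the change of dim genes. The 2% trimmed mean before scaling ran from 50.9 to 121 over the 6 arrays, and their median correlation with the other 17 arrays from 0.928 to 0.961. The 3 arrays that lay apart on the first principal component (23.9% of the variance) were p53ER vehicle replicate 1, p53ER 0 h replicate 3 and uninfected 0 h replicate 2, none of them among the 6. The second component (21.8%) set the arrays numbered 3 apart from those numbered 1 and 2. Of the markers with a probe set used here, all 12 mesenchymal and all 7 neural ones were bright enough to be tested, against 4 of 11 epithelial, 6 of 10 blood, 2 of 8 endothelial and 3 of 7 muscle markers, and none of the markers passed the threshold.

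In p53ER cells 8 genes were higher than in uninfected cells, of 10916 tested (0.0733%), and no gene passed as lower (limma, adjusted p under 0.05). They were the p53 targets Mdm2, Cdkn1a, Phlda3 and Pmaip1, the regulator of antigen presentation Nlrc5, and Mycn, Mxd4 and Arhgef4. Nlrc5 is also counted below among other p53 targets. Their differences ran from 1.14 for Mxd4 to 6.81 for Mycn. The median difference over all genes tested was 0.003, with 50.4% of genes above 0. At an unadjusted p under 0.05, 248 genes were higher (2.27%) and 171 lower (1.57%). A fit with the replicate number as a block put 679 genes under that level (6.22%). Differences of at least 1 on the log2 scale were found for 91 genes upwards and 14 downwards, and of at least 2 for 13 upwards and 0 downwards.

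**Figure D1:**
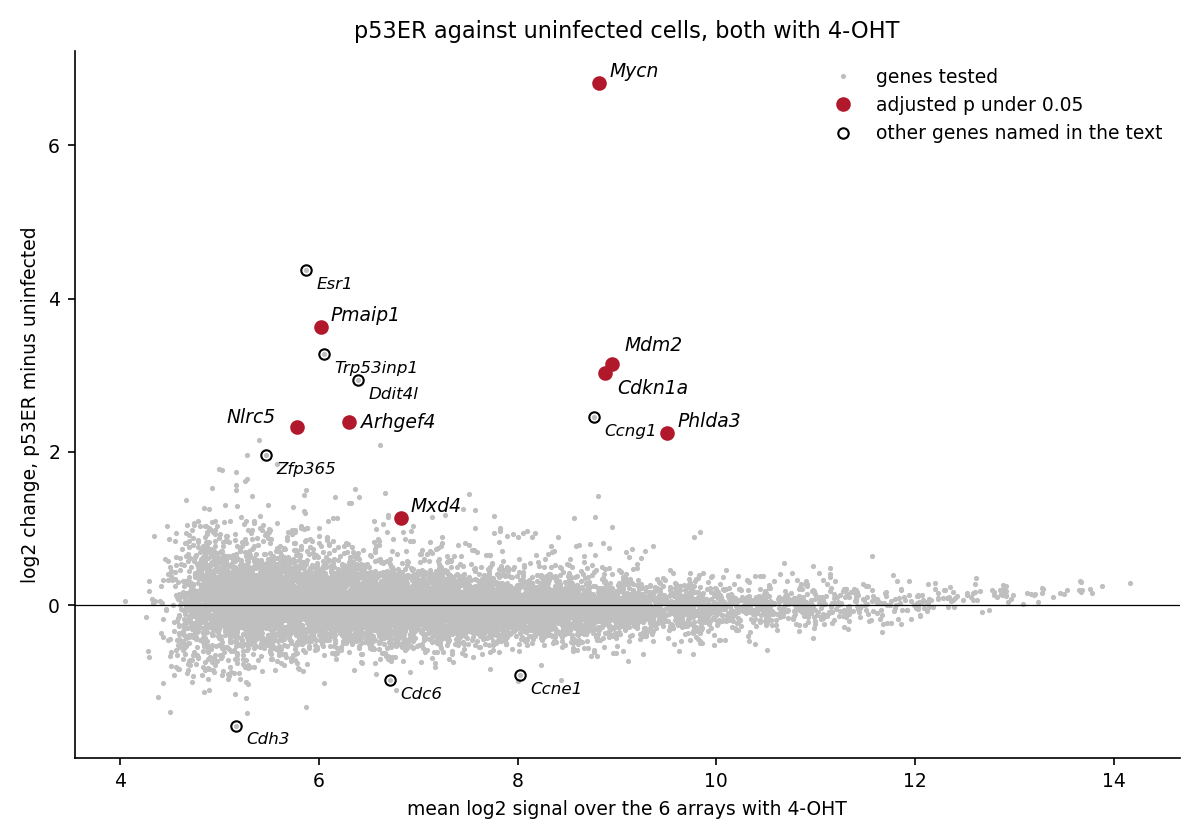
Difference between p53ER and uninfected cells, both with 4-OHT (vertical axis, log2 change), against the mean log2 signal over the 6 arrays (horizontal axis) for the 10916 genes tested. Filled red points are the 8 genes past the threshold, all above 0, and open circles are other genes named in the text, with Mycn the farthest from 0 at 6.81.

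Mdm2, the ligase that limits p53, had 10.21, 10.09 and 11.26 on p53ER replicates 1 to 3, against 7.06, 7.44 and 7.62 in uninfected cells. The lowest p53ER array lay above the highest uninfected array by more than the range within either group. The difference was 3.15 (SE 0.41), an 8.86-fold higher signal in p53ER cells (limma adjusted p = 0.00654). Another Mdm2 probe set gave 3.23 (SE 0.28), with a limma adjusted p of 1.04e-05 in a fit of every probe set, and the dimmest of its probe sets 0.99 (SE 0.52). By replicate number the differences were 3.15, 2.66 and 3.64.

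Cdkn1a, which encodes the cell cycle inhibitor p21, had 9.77, 10.17 and 11.23 in p53ER cells and 7.09, 7.19 and 7.80 in uninfected cells. The groups did not overlap, and p53ER replicate 3 was the highest of the 6 arrays. The difference was 3.03 (SE 0.49), 8.16-fold (limma adjusted p = 0.0261), and the dimmer of its probe sets gave 3.17 (SE 0.74). Phlda3, whose product competes with the kinase Akt for membrane lipids, had the smallest p of all genes. Its signals were 10.41, 10.51 and 10.96 in p53ER cells and 8.28, 8.48 and 8.38 in uninfected cells. These are the tightest values among the called genes in uninfected cells, with an SD of 0.10. The difference was 2.24 (SE 0.24), 4.74-fold (limma adjusted p = 0.000667).

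Pmaip1 encodes Noxa, a pro-apoptotic protein of the Bcl-2 family. It had 7.14, 7.64 and 8.71 in p53ER cells and 4.26, 3.73 and 4.61 in uninfected cells. Its mean in uninfected cells, 4.20, was under that of the dimmest gene tested (4.74), so the difference of 3.63 (SE 0.52, limma adjusted p = 0.00993) depends on the offset. It was 2.96 with an offset 4 times as large, and 3.99 with none, where the limma adjusted p was 0.0637. Genes were kept for testing by their mean over all arrays of the series. In every group other than p53ER cells with 4-OHT the mean of Pmaip1 was between 3.46 and 4.75. The gene was therefore tested mainly because of its signal in the group in which it was called.

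The capitals below mark each exact match to the p53 decamer RRRCWWGYYY (R a purine, W A or T, Y a pyrimidine). A p53 response element holds a pair of decamers, and decamers with a mismatch were not searched for. Windows run from 250 bases before to 50 bases after the gene's start. Windows come from RefSeq on GRCm38.p6 and are written 5′ to 3′ on the gene's strand. Both strands were searched, and since the pattern is its own reverse complement a match on either strand is a match on the other. No other motif was searched. Cdkn1a is shown whole because its upstream start is the only window of a called gene with a pair of exact matches close together. They lie 12 bases apart, centred at positions -68 and -46 relative to that start (chr17:29090729-29091028, + strand). The decamer right after the second match differs from the pattern at its first base alone, so it is in lower case and was not counted.
Cdkn1a: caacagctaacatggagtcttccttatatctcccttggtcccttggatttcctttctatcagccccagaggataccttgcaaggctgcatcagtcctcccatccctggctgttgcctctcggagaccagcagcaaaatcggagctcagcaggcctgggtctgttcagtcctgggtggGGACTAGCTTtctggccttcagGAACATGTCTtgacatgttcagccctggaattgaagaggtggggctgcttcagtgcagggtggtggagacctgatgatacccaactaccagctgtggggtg
The other called genes with a decamer are shown as 30 bases around it, Mdm2 (chr10:117710925-117710954, - strand) and Arhgef4 (chr1:34678048-34678077, + strand), together with Ccng1 (chr11:40755452-40755481, - strand), a p53 target whose signal differed without passing.
Mdm2: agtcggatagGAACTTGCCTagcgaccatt
Arhgef4: accagtgtttGGACAAGTCCctgcggactc
Ccng1: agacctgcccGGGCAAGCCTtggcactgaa
Relative to the start the decamers are centred at -181 in Mdm2, -119 in Arhgef4 and -180 in Ccng1. A window was listed for 6 of the 8 called genes, and 3 of these 6 held a decamer (50%), against 738 of 8874 tested genes with a window (8.32%). Counted by window, it was 3 of 8 for the called genes (37.5%), against 788 of 11387 windows of tested genes (6.92%). Over all windows listed, untested genes included, it was 2745 of 32851 (8.36%). A pair within 13 bases was found in 5 windows of tested genes and in 24 of all windows. Cdkn1a has a downstream start too, 2790 bases on, from which the pair lies 2858 and 2836 bases away. A match is a description of these letters and no measure of binding.

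Nlrc5 encodes the transactivator of MHC class I genes. It had 6.67, 6.25 and 7.90 in p53ER cells and 4.45, 4.37 and 5.02 in uninfected cells, with a difference of 2.32 (SE 0.38, limma adjusted p = 0.0261). All p53ER arrays were above all uninfected arrays, whose mean of 4.62 was also under that of the dimmest gene tested. With vehicle and at 0 h, the means of Nlrc5 in either kind of cell were 4.85 to 5.20, above the dimmest gene tested. Arhgef4 had 7.05, 7.08 and 8.36 in p53ER cells and 5.66, 5.21 and 4.44 in uninfected cells. Its difference was 2.39 (SE 0.41, limma adjusted p = 0.0291), while its dimmer probe set, with means of 3.06 in p53ER cells and 4.13 in uninfected cells, gave -1.08 (SE 0.54). Mxd4, a MAX partner that opposes Myc proteins at their binding sites, had 7.27, 7.24 and 7.67 in p53ER cells against 6.38, 6.33 and 6.05 in uninfected cells. This was the smallest called difference, 1.14 (SE 0.17, limma adjusted p = 0.0117), and its other 3 probe sets gave 1.11, 0.65 and 0.38.

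Mycn, a transcription factor of the Myc family, had the largest difference of the genes tested, with 11.49, 11.35 and 13.83 in p53ER cells against 6.08, 6.39 and 3.76 in uninfected cells. p53ER replicate 3 was the highest array and uninfected replicate 3 the lowest, so the replicate differences were 5.41, 4.96 and 10.07. The fitted difference was 6.81 (SE 0.98, limma adjusted p = 0.0113). It rests on a single probe set: the other 2 Mycn probe sets were near the floor, with p53ER means of 3.07 and 3.20, and gave -0.07 and 0.52. Esr1, the estrogen receptor alpha gene, had 7.41, 7.34 and 9.40 in p53ER cells and 4.32, 3.61 and 3.12 in uninfected cells, a difference of 4.37 (SE 0.82) that did not pass (limma adjusted p = 0.0946). The uninfected mean of Esr1, 3.68, was under that of the dimmest gene tested, and its difference was 4.96 with no offset and 3.45 with the larger one. Its other 2 probe sets gave 0.37 and 0.36. Whether the bright Esr1 probe set reads the fusion's transcript was not tested.

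**Figure D2:**
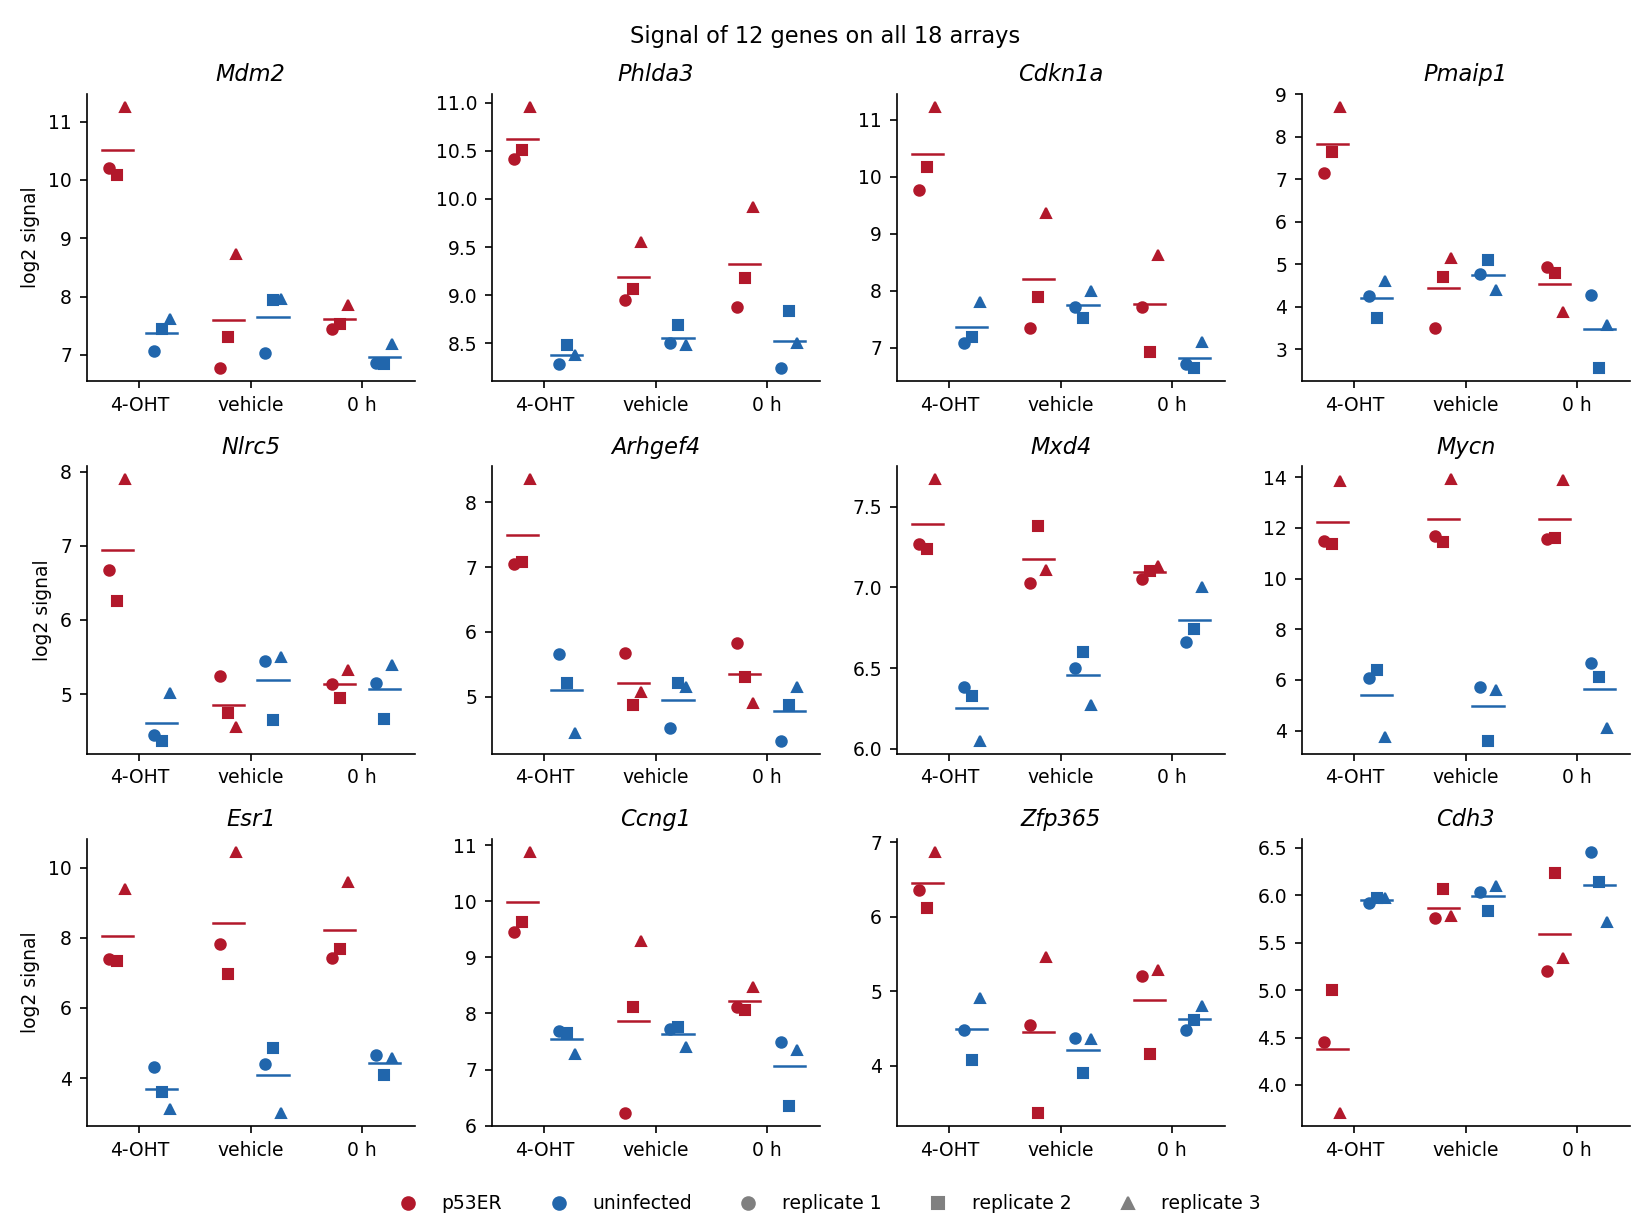
Log2 signal (vertical axes, each with its own range) of 12 genes on all 18 arrays, by treatment, with p53ER cells in red left of uninfected cells in blue. Points are arrays, symbols give the replicate number and lines the mean of 3: Mdm2, Cdkn1a, Pmaip1, Nlrc5 and Arhgef4 stand apart in p53ER cells with 4-OHT, whereas Mycn and Esr1 stand apart in p53ER cells under every treatment.

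p53ER replicate 3 was the highest of the 3 p53ER arrays for every called gene. It was also highest for Mycn and Esr1 with vehicle (13.92 and 10.46) and at 0 h (13.89 and 9.60), and its part in the called differences was measured by leaving it out. Without it, Phlda3 alone passed (difference 2.08, limma adjusted p = 0.0086), and the difference of Mdm2 was 2.78 (adjusted p = 0.0536), of Cdkn1a 2.61, of Pmaip1 3.19 and of Mycn 6.01. Without uninfected replicate 2 or 3, 3 genes passed. Phlda3 passed in each of the 6 fits that left out 1 array, Mdm2 in the other 5. Cdkn1a passed only without p53ER replicate 1 and Nlrc5 only without p53ER replicate 2, with limma adjusted p of 0.0632 to 0.234 elsewhere. Arhgef4 did not pass without p53ER replicate 1 or 3 or uninfected replicate 2 or 3 (0.0553 to 0.287), Mxd4 without p53ER replicate 3 or uninfected replicate 2 or 3 (0.0687 to 0.131), Pmaip1 without p53ER replicate 3 or uninfected replicate 2 (0.119 and 0.0687) and Mycn without replicate 3 of p53ER or of uninfected cells (0.119 and 0.0743). Without replicate 3 of both groups no gene passed (limma, 214 at an unadjusted p under 0.05), with 2.08 for Phlda3 (adjusted p = 0.0555) and 2.90 for Mdm2 (adjusted p = 0.159). With the 6 arrays fitted alone, 5 genes passed: Phlda3, Mdm2, Pmaip1, Psrc1 and Trp53inp1.

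Arrays with the same number deviated together in this comparison, clearly so only for number 3. A fit with the replicate number as a block called 16 genes (0.147% of those tested), each of them higher. These were the 8 genes above and 8 more, which apart from Zfp365 were named after their values were seen. Trp53inp1, a stress protein that promotes p53-dependent death, had 7.29, 7.33 and 8.46 in p53ER cells and 4.22, 4.32 and 4.68 in uninfected cells (difference 3.28, SE 0.55, limma adjusted p = 0.0333 with the block and 0.155 without), the uninfected mean of 4.41 being under that of the dimmest gene tested. Ddit4l, an inhibitor of mTOR signalling, had 6.94, 7.07 and 9.58 against 4.46, 5.08 and 5.23 in uninfected cells (2.94, SE 0.37, adjusted p = 0.00228 with the block). Neither gene overlapped between the groups, and in both replicate 3 of p53ER cells stood highest. Btg2, an antiproliferative protein, differed by 1.46 (SE 0.21, adjusted p = 0.00654) and Ei24, a membrane protein of the endoplasmic reticulum, by 1.14 (SE 0.20, adjusted p = 0.0375). The remaining genes were Btbd11 (1.26), Pard6g (0.97), a cell polarity protein, the transcriptional repressor Hbp1 (0.71) and Zfp365. For the 16 genes, 12 had a promoter window and 5 of these held a decamer (41.7%, against 8.32% of tested genes with a window). Ddit4l and Ei24 were the 2 not shown above as called.

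Zfp365, the mouse form of the zinc finger gene named in the study's title, had 6.36, 6.11 and 6.87 in p53ER cells and 4.48, 4.08 and 4.91 in uninfected cells. All p53ER arrays were higher. The difference was 1.96 (SE 0.45), 3.89-fold, which did not pass without the block (limma adjusted p = 0.271) and passed with it (SE 0.34, adjusted p = 0.0338). Its dimmer probe set gave 2.29 (SE 0.54). Its uninfected mean of 4.49 lay under that of the dimmest gene tested (4.74). With vehicle and at 0 h its group means were 4.21 to 4.88. Zfp365 was therefore tested mainly because of its signal in p53ER cells with 4-OHT.

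Among 11 tested regulators of p53, Mdm2 alone was called (9.09%, against 0.0733% of all genes), 8 had positive and 3 negative differences, and the median was 0.328. This list and those that follow were chosen with earlier results of these data known, so their shares are descriptive. In 4 of them, Mdm2, Ccng1, Trp53inp1 and Zmat3, all p53ER arrays lay above all uninfected arrays (36.4%, against 5.49% of all genes). Ccng1, a cyclin that recruits a phosphatase to Mdm2, had 9.45, 9.63 and 10.88 in p53ER cells and 7.68, 7.65 and 7.28 in uninfected cells, a difference of 2.45 (SE 0.56, limma adjusted p = 0.278). Its most precise probe set gave 2.29 (SE 0.27) and passed in the fit of every probe set (limma adjusted p = 0.000705), so the choice of the brightest probe set decides that call. Mdm4, which inhibits p53 directly, differed by -0.46 (SE 0.33) and Ppm1d, a phosphatase that ends the response, by 0.29. Zmat3, an RNA-binding target of p53, differed by 1.10 (SE 0.43) and was named after its values were seen, as were Mdm4 and Ppm1d. In untreated cells (vehicle and 0 h averaged) 9 of the 11 regulators had positive differences, with a median of 0.201.

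Of 15 growth arrest targets, 2 were called (Cdkn1a and Phlda3), 11 had positive differences and the median was 0.291. All p53ER arrays lay above all uninfected arrays in 5 of the 15 (33.3%, against 5.49% of all genes) and below in 0, and 13.3% of the list was called, against 0.0733% of all genes. Among those that did not pass, chosen after their values were seen, Psrc1, a spindle protein, had 7.67, 7.63 and 7.66 in p53ER cells and 5.25, 5.66 and 5.79 in uninfected cells (2.09, SE 0.50, limma adjusted p = 0.348). Tob1, an antiproliferative relative of Btg2, differed by 0.67 (SE 0.19). The Gadd45 genes, stress sensors, had differences of 0.23 for Gadd45a, -0.03 for Gadd45b and -0.36 for Gadd45g.

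Of 24 targets in cell death, 1 was called (Pmaip1, 4.17%, against 0.0733% of all genes), 19 had positive differences and the median was 0.486. In 11 of the 24 all p53ER arrays lay above all uninfected arrays (45.8%, against 5.49% of all genes) and in 1, Bid, below (4.17%, against 5.73%). The 11 include the survival genes Bcl2, Bcl2l1 and Mcl1, so the share is not one of death-promoting genes alone. The genes given next were also chosen after their values were seen. Fas, the death receptor, had 6.05, 5.66 and 6.48 in p53ER cells and 5.62, 3.26 and 4.44 in uninfected cells (1.62, SE 0.74), with a wide spread in uninfected cells. Perp, a membrane protein of junctions and death, differed by 1.18 (SE 0.44), and Aen, a nuclease, by 0.51 (SE 0.19). Bbc3, which encodes Puma, differed by 0.67 with overlapping arrays, and Bid, a cleaved death agonist, by -0.32 (SE 0.16). Of the survival genes on the list, none passed. With arrays that did not overlap, Mcl1 differed by 0.34 (SE 0.17), Bcl2l1 by 0.30 (SE 0.17) and Bcl2 by 0.94 (SE 0.62). Triap1, with overlapping arrays, differed by -0.25 (SE 0.20). The other 4 Bcl2 probe sets gave -0.09 to 0.77 with overlapping arrays.

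**Figure D3:**
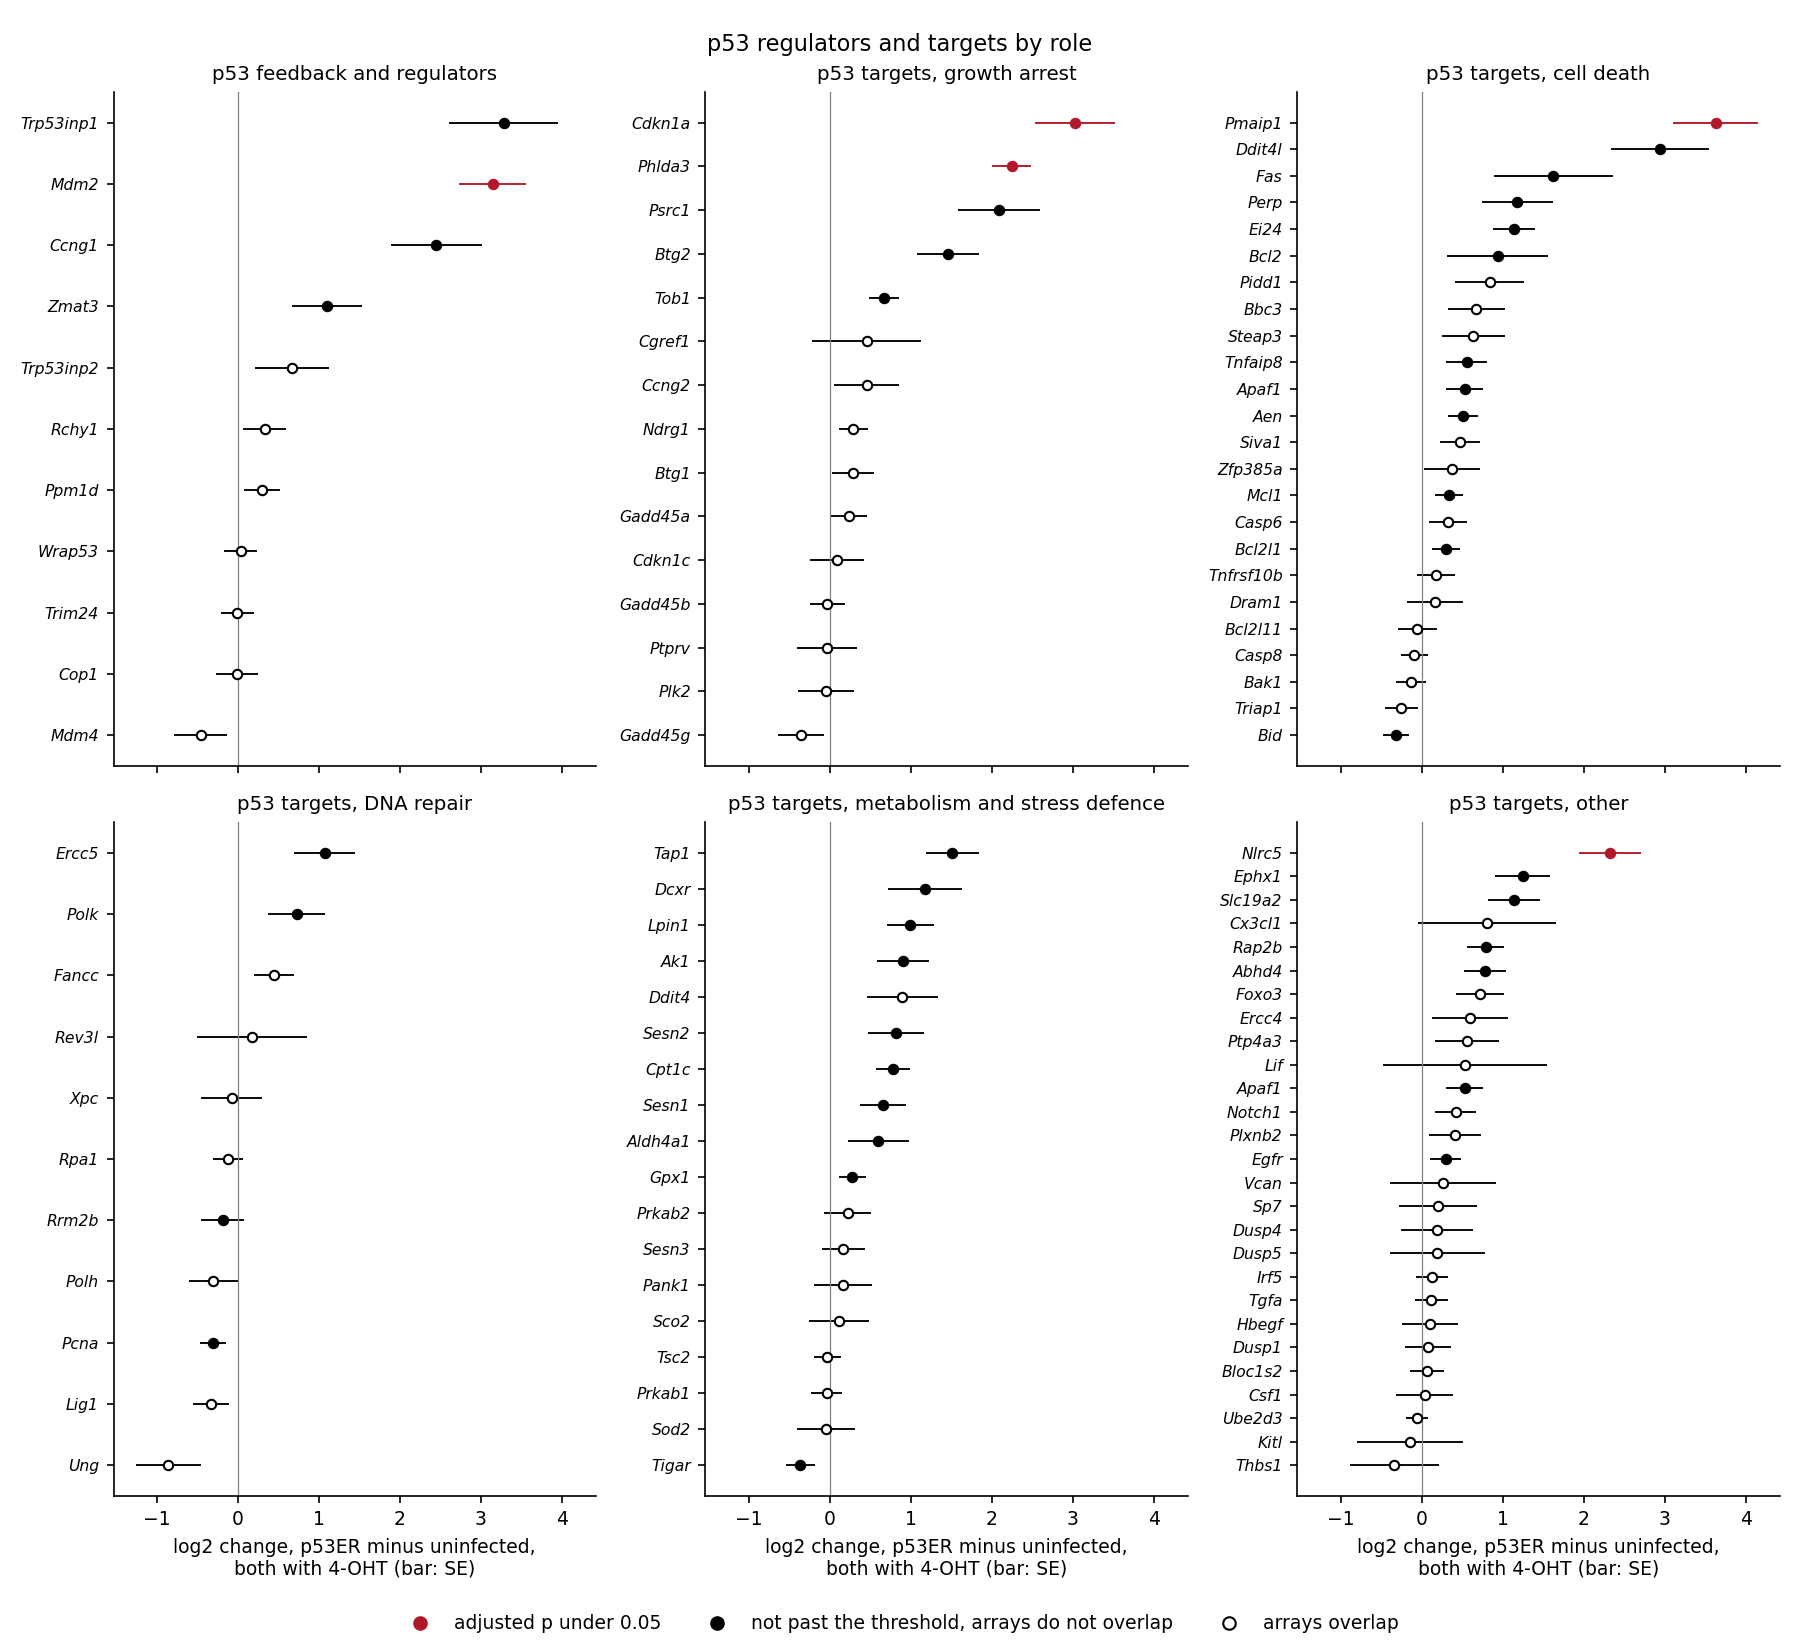
Log2 difference with its standard error (horizontal axes, p53ER minus uninfected, both with 4-OHT) for every tested gene of the 6 p53 lists, ordered by size within each panel. Red points passed the threshold, black points have arrays that do not overlap and open points have arrays that overlap: DNA repair has no red point and its median is -0.127.

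The median of DNA repair targets had the opposite sign: of 11, none was called, 4 had positive and 7 negative differences, and the median was -0.127. At an unadjusted p under 0.05 (limma) 1 was higher and 1 lower, against 2.27% and 1.57% of all genes. Ercc5, a nuclease of excision repair, had 5.58, 5.23 and 6.83 in p53ER cells and 4.87, 4.58 and 4.97 in uninfected cells (1.07, SE 0.38, limma adjusted p = 1). Ung, the uracil glycosylase, had 5.89, 5.25 and 5.08 against 6.13, 5.75 and 6.91 in uninfected cells (-0.86, SE 0.41). Pcna, the sliding clamp of replication, had 11.06, 11.21 and 11.23 against 11.28, 11.42 and 11.74 in uninfected cells (-0.31, SE 0.16). Rrm2b, the p53-inducible ribonucleotide reductase subunit, differed by -0.19 (SE 0.27), and both were named after their values were seen.

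Of 18 targets in metabolism and stress defence, none was called, 14 had positive differences and the median was 0.438. At an unadjusted p under 0.05 (limma) 7 were higher and 0 lower, against 2.27% and 1.57% of all genes. Tap1, which carries peptides to MHC class I molecules, had 7.06, 6.85 and 7.44 in p53ER cells and 6.18, 4.89 and 5.75 in uninfected cells (1.51, SE 0.33, limma adjusted p = 0.199). Cpt1c, a carnitine palmitoyltransferase, differed by 0.78 (SE 0.21, adjusted p = 0.545). Dcxr, a xylulose reductase, Lpin1, a phosphatidate phosphatase, and Ak1, an adenylate kinase, differed by 1.18, 0.99 and 0.90, and the sestrins Sesn1 and Sesn2, which restrain mTOR signalling, by 0.65 and 0.82. Tigar, a fructose bisphosphatase, differed by -0.37 (SE 0.18) with every p53ER array below every uninfected array. These last 6 were named after their values were seen. Of the 18 targets, 14 were positive in untreated cells too, with a median of 0.208.

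Of 27 other p53 targets, 1 was called (Nlrc5, 3.7%, against 0.0733% of all genes), 24 had positive differences and the median was 0.293. Ephx1, an epoxide hydrolase, differed by 1.24 (SE 0.34), Slc19a2, a thiamine transporter, by 1.14 (SE 0.32) and Rap2b, a small GTPase, by 0.79 (SE 0.22), each with arrays that did not overlap and each named after its values were seen. Over the 6 p53 lists together, 105 genes were tested, 5 were called (4.76%, against 0.0733% of all genes) and 79 had positive differences. Of the called genes, Mdm2, Cdkn1a and Phlda3 had been set beforehand as markers of p53 activity. The lists were chosen with earlier results known, so these shares describe them and are no test of a p53 response. The median of the 105 was 0.327, against 0.003 over all genes, and 0.187, 0.328 and 0.542 by replicate number. All p53ER arrays lay above all uninfected arrays in 37 of the 105 (35.2%) and below in 4 (3.81%), against 5.49% and 5.73% of all genes. Of the 105, 19 differed by at least 1 upwards and 0 downwards. In untreated cells 68 of the 105 had positive differences, with a median of 0.078.

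Without 4-OHT the same cells share no array with this comparison, and every called gene except Mycn then differed by 0.72 or less. With vehicle and 0 h averaged, 2 genes passed, Mycn (7.05, SE 0.69, limma adjusted p = 0.000363) and Esr1 (4.07, SE 0.58, adjusted p = 0.02), which is 0.0183% of those tested. With vehicle alone Mycn passed (7.38, limma adjusted p = 0.0174, 0.00916% of genes) and at 0 h no gene did (limma, 312 at an unadjusted p under 0.05). Without the drug the difference was 0.30 for Mdm2, 0.70 for Cdkn1a, 0.38 for Pmaip1, 0.41 for Arhgef4 and -0.14 for Nlrc5. It was 0.72 for Phlda3 and 0.50 for Mxd4, and in these 2 genes all p53ER arrays lay above all uninfected arrays with vehicle and again at 0 h. How many of all genes do so without the drug was not counted, so this describes these 2 genes only. Psrc1 differed by 2.09 with 4-OHT, against 2.05 (SE 0.36) without it.

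The difference with 4-OHT minus the mean difference without it was 2.85 for Mdm2 (SE 0.51), 3.25 for Pmaip1 (SE 0.64), 2.46 for Nlrc5 (SE 0.47), 2.33 for Cdkn1a (SE 0.60), 1.98 for Arhgef4 (SE 0.50) and 1.53 for Phlda3 (SE 0.30). It was -0.23 for Mycn (SE 1.2), 0.30 for Esr1 (SE 1.0) and 0.04 for Psrc1 (SE 0.62). No gene passed in this test (limma, 181 at an unadjusted p under 0.05, 135 of them higher, smallest adjusted p 0.275), nor against vehicle alone (limma, 170, smallest adjusted p 0.329). Over all probe sets the other Mdm2 probe set passed (2.98, SE 0.34, with a limma adjusted p of 0.00121). For Mdm2, Cdkn1a, Phlda3, Pmaip1, Nlrc5, Arhgef4, Ccng1 and Zfp365 the 3 p53ER arrays with 4-OHT lay above all 15 other arrays of the series. These genes already lay above the 3 uninfected arrays with 4-OHT, as given before. The share of all genes that does so was not counted, so this describes the named genes only.

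**Figure D4:**
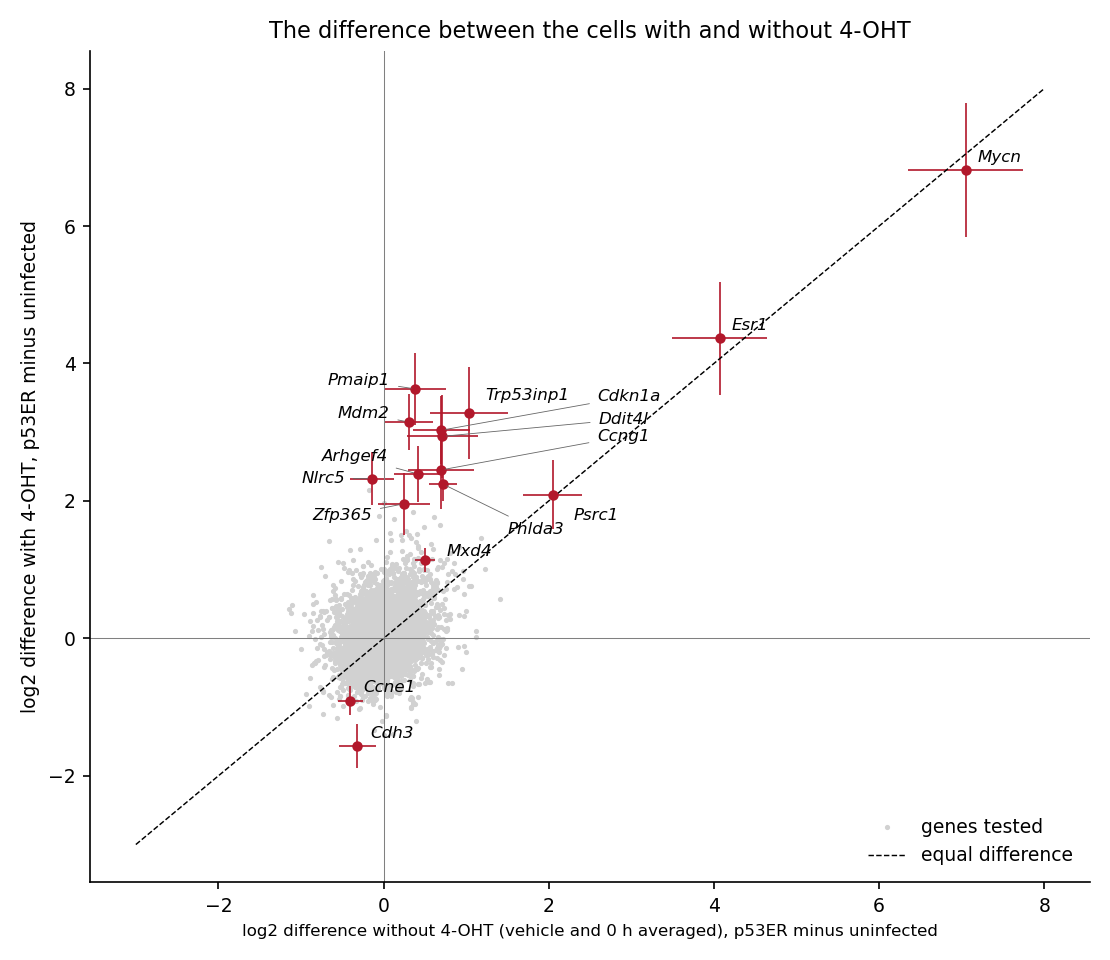
Difference between p53ER and uninfected cells with 4-OHT (vertical axis, log2) against the difference without it (horizontal axis, log2, vehicle and 0 h averaged) for the genes tested in grey and named genes in red with standard errors on both axes. The dashed line marks equal differences: Mycn, Esr1 and Psrc1 lie within a standard error of it, and Mdm2, Cdkn1a, Pmaip1 and Nlrc5 lie above it, between 0.70 and -0.14 without the drug.

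No gene passed as lower, and the 8 with the smallest p among genes lower on every p53ER array are given as values. Cdh3, which encodes P-cadherin, had 4.45, 5.0 and 3.70 in p53ER cells and 5.92, 5.97 and 5.97 in uninfected cells (-1.57, SE 0.32, limma adjusted p = 0.155), and its other probe set, dim in both groups, gave 0.78 (SE 0.52). The mean of Cdh3 in p53ER cells, 4.38, was under that of the dimmest gene tested. Ccne1, cyclin E1 of the entry into S phase, had 7.38, 8.10 and 7.23 against 8.46, 8.39 and 8.58 in uninfected cells (-0.91, SE 0.21, adjusted p = 0.278), and its other probe set gave -0.87. Cdc6, which loads the replicative helicase, differed by -0.98 (SE 0.27), and Bccip, a partner of BRCA2 and p21, by -0.72 (SE 0.16). The others were Wwc1 (-0.75), a regulator of Hippo signalling, Obi1 (-0.74), a ubiquitin ligase at replication origins, Gpatch4 (-0.69) and Prkar2a (-0.58), a regulatory subunit of protein kinase A. All 3 p53ER arrays with 4-OHT lay below all 15 other arrays for Cdh3 and Cdc6. Both were named for being lower on these arrays, and the share over all genes was not counted. Over all probe sets 1 passed as lower, a probe set with no listed gene (-1.99, SE 0.28, limma adjusted p = 0.00505).

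No cell cycle gene passed, and most differences were negative. At an unadjusted p under 0.05 (limma) 8 of the 34 G1/S genes and 0 of the 29 mitotic genes were lower, against 1.57% of all genes. Of 34 genes of the G1/S transition and replication, 31 had negative differences, with a median of -0.364, and in 12 every p53ER array lay below every uninfected array (35.3%, against 5.73% of all genes). All 29 mitotic genes had negative differences, with a median of -0.454. In 10 of them every p53ER array lay below every uninfected array (34.5%, against 5.73% of all genes). Cdk1, the mitotic kinase, had 10.94, 11.06 and 10.28 in p53ER cells and 11.19, 11.23 and 11.15 in uninfected cells (-0.43, SE 0.24), and Foxm1, a transcription factor of mitotic genes, had 8.31, 8.13 and 7.78 against 8.57, 8.43 and 8.43 in uninfected cells (-0.40, SE 0.20). In both genes p53ER replicate 3 was the lowest array.

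By replicate number the mitotic median was -0.112, -0.263 and -1.023, and that of the G1/S list -0.166, -0.279 and -0.686, so most of the shift lay in replicate 3. Without 4-OHT the same lists had medians of -0.349 with 28 of 29 negative for mitosis, and of -0.179 with 32 of 34 negative for G1/S. The mitotic median was -0.46 with vehicle and -0.178 at 0 h. Without the 3 arrays that lay apart, all of them untreated, the untreated medians were -0.193 for mitosis and -0.208 for G1/S. The median of the difference with 4-OHT minus that without was -0.08 for mitosis and -0.17 for G1/S, and -0.188 and -0.177 without those 3 arrays. Fewer cycling cells and less of these transcripts in each cell cannot be told apart on bulk RNA. Ribosome biogenesis genes were mostly negative too (21 of 23 negative, median -0.215), with Nolc1 at -0.60 (SE 0.21) and Nop56 at -0.59 (SE 0.20), as were genes of replication stress and break repair (19 of 26 negative, median -0.233), where Zfp365 stood at the other end. Without 4-OHT 19 of the 23 ribosome biogenesis genes were negative (median -0.094) and 23 of the 26 of replication stress and break repair (median -0.123, or -0.058 without those 3 arrays, with -0.353 for vehicle and 0.098 at 0 h).

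The MHC class I list had 12 of 14 positive differences and a median of 0.311, led by Nlrc5 and Tap1, which are also on the p53 lists. Without 4-OHT 10 of the 14 were positive, with a median of 0.12 (-0.005 with vehicle and 0.273 at 0 h). That untreated median was 0.05 without the 3 arrays that lay apart. The median of the difference with 4-OHT minus that without was 0.161. In 4 of the 14 all p53ER arrays lay above all uninfected arrays (28.6%, against 5.49% of all genes). Psmb8, an immunoproteasome subunit, differed by 0.68 (SE 0.31) and B2m, the light chain of MHC class I, by 0.36 (SE 0.26), both with arrays that did not overlap, B2m being named after its values were seen. The MHC list's median by replicate number was 0.016, 0.632 and 0.25, and the interferon response list, which shares Psmb8 and Psmb9 with it, had 13 of 23 positive and a median of 0.104. Interferon response genes without 4-OHT were positive in 20 of 23, with a median of 0.233 (0.03 without the 3 untreated arrays that lay apart). Telomere maintenance genes were evenly split, 10 of 20 positive with a median of -0.001. The immediate early list had a median of 0.08, with Junb at 0.96 (SE 0.28). Estrogen receptor targets had a median of 0.107 over 10 genes. None of them had arrays that did not overlap, against 5.49% of all genes above and 5.73% below.

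**Figure D5:**
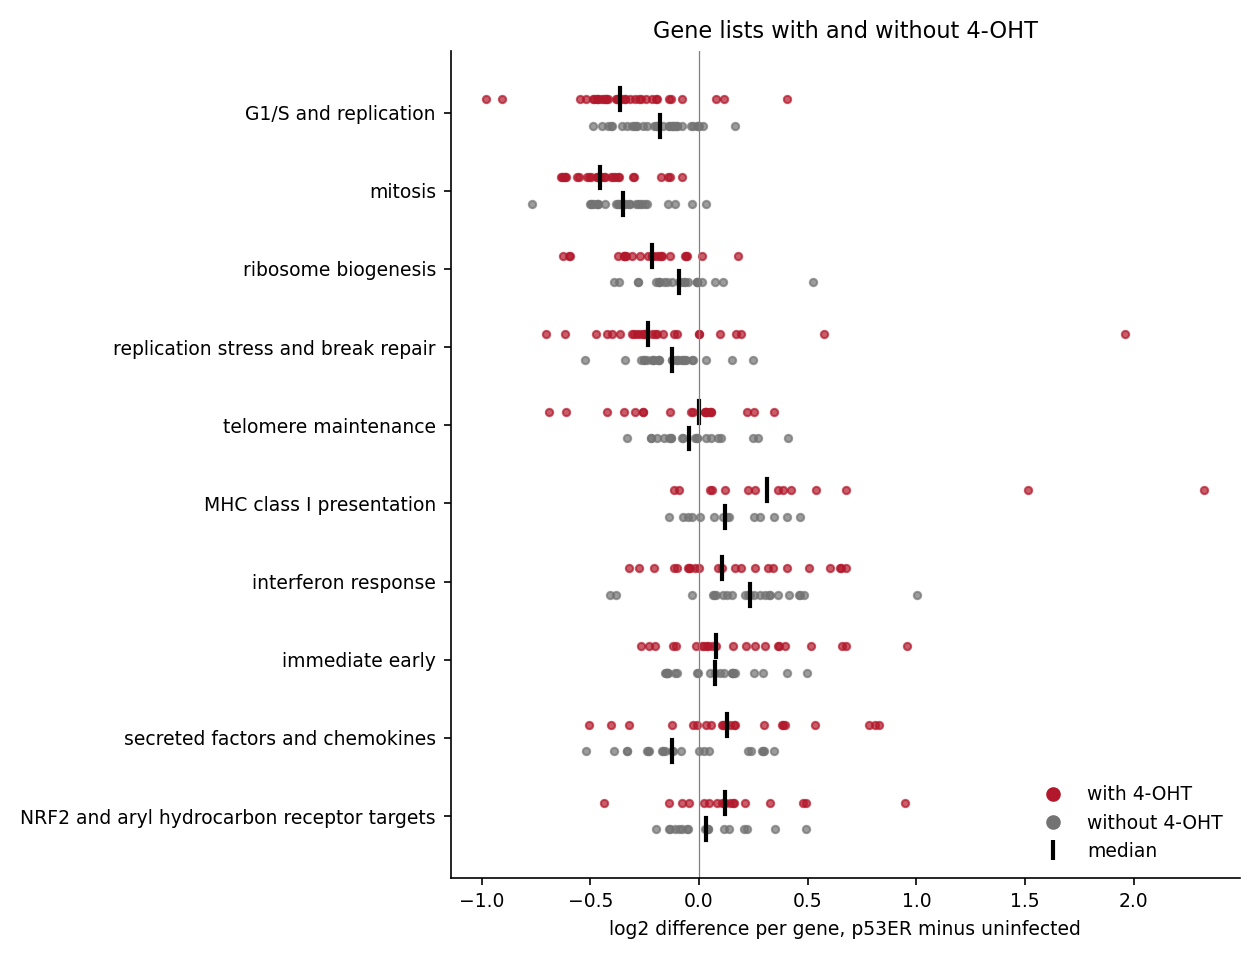
Log2 difference between p53ER and uninfected cells (horizontal axis) for each tested gene of 10 lists, with 4-OHT in red above without 4-OHT (vehicle and 0 h averaged) in grey, and the list median as a black bar. The mitosis medians are -0.454 with and -0.349 without 4-OHT (-0.193 without the 3 untreated arrays that lay apart), and the telomere medians lie near 0 under either.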

How the data were processed

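Expression was read from 18 one-colour Affymetrix arrays, 3 for each of 6 groups. The authors deposited linear intensity values for 45101 probe sets, made with MAS5 per the submitters' processing notes (version not given in the sources used here). Arrays were brought to the same 2% trimmed mean (82.7), 5% of that mean (4.13) was added and log2 taken. The number of arrays limits precision.

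The probe annotation gave 1 gene for 34958 probe sets, several for 932 and none for 9211, and 34754 were matched by Entrez ID to RefSeq gene names of GRCm38.p6. Of 18194 genes, read by their brightest probe set, the upper 60% by mean signal, 10916, were tested. Some genes are not analysed here.

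A limma model of 6 group means (12 residual degrees of freedom, trended and robust prior) gave two-sided p-values adjusted by Benjamini-Hochberg over all genes, with a threshold of 0.05. An exact permutation of 3 against 3 arrays cannot go below p = 0.1. Deviations of same-numbered arrays correlated at 0.259, 0.174 and 0.466, above 0.1 in every pair, and 5 of 6 arrays correlated best with their own number. Numbers 1 and 2 were hardly told apart, with 0.199 and 0.169 across them, while number 3 against the others gave -0.348 to -0.261. What a number stands for is not in the labels. So values with the replicate block (10 residual degrees of freedom) stand beside results they change.

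Named genes were Mdm2, Cdkn1a, Phlda3, Ccng1, Zfp365 and Esr1, up to 15 called each way, filled to 8 with the smallest p among genes whose arrays do not overlap, and for each of 28 lists (456 tested genes) those called or the 2 with the smallest p. Members, lists and this rule were chosen with earlier results of these data known. The pipeline was tested on simulated data. Promoter windows were those of RefSeq.

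Alternatives were quantile normalization, no or a larger offset (16.5), no or a stricter filter, all probe sets, the block, only the arrays compared, a plain variance prior, leaving out arrays, array weights and a minimum fold of 1.5. Software was R 4.3.3 with limma 3.58.1, statmod 1.5.0 and data.table (version 1.17.8), and matplotlib 3.10.9 for figures.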

Additional observations from a re-analysis of the deposited data

How the results depend on the processing

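The count of 8 genes became 16 with the replicate block, 32 with array weights (30 higher, 2 lower), 5 with a stricter filter or only the arrays compared, 4 with a minimum fold of 1.5 and 0 without replicate 3 of both groups. It was 6 with quantile normalization or no offset, 8 with a larger offset or a plain prior, and 9 with no filter. Over all probe sets 8 probe sets passed, 7 higher ones of 6 genes (Mdm2 with 2, Phlda3, Ccng1, Pmaip1, Nlrc5 and Arhgef4) and 1 lower with no listed gene, while Cdkn1a (limma adjusted p = 0.0633), Mycn (0.081) and Mxd4 (0.0533) did not pass. At an unadjusted p under 0.05 the 419 genes became 679 with the block, 604 without the 3 arrays apart and 1072 with array weights. Leaving out 1 array gave 1 to 9, the 9 including Cdh3 and Ccne1 as lower without p53ER replicate 2. Without the 3 arrays that lay apart, an alternative chosen after the data were seen, 12 genes passed, among them all 8 and Ccng1, Psrc1, Trp53inp1 and Ckap2.

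With vehicle, the 1 gene became 0 with no filter, all probe sets, the block, only the arrays compared or without the 3 arrays apart, and 0 to 2 on leaving out 1 array. At 0 h, 1 gene passed with quantile normalization, a larger offset, a stricter filter or without the 3 arrays apart, and 0 to 1 on leaving out 1. Untreated, the 2 genes became 1 with no filter, a stricter filter, all probe sets, the block or only the arrays compared, and 1 to 3 on leaving out 1. For the difference between differences against vehicle, 1 passed with all probe sets or the block and 2 with array weights; against both untreated conditions, 1 with all probe sets, 4 with the block (Mdm2, Phlda3, Cdkn1a and Nlrc5) and 3 with array weights; leaving out 1 array gave 0 to 1 in each. In these comparisons not every pair of same-numbered arrays correlated above 0.1, so the block result is given here alone. The cause of these changes was not tested.

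Of single genes, Rtel1 turned to 0.37 with quantile normalization and 0.35 with a larger offset, and Flt1 to 0 with quantile normalization. On leaving out 1 array Flt1 ran from -0.03 to 0.18, Ckm from -0.57 to 0.03 and Kdr from -0.24 to 0.19. Scaling by quantiles moved the median of all genes to -0.008, and the medians of the p53, G1/S and mitosis lists kept their sign.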
